A study of Mus musculus with 29 samples.

Results

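Lymphoid-primed multipotent progenitors (MPP4) were compared with short-term haematopoietic stem cells (ST-HSC), both sorted from the bone marrow of Dnmt3a-mutant mice. The comparison used every library labelled mutant MPP4 (4) and mutant ST-HSC (4), 8 of the 29 RNA-seq libraries of the study. The animals were young C57BL/6 mice taken 6 weeks after treatment with pIpC, an analogue of double-stranded RNA, which the control animals had received too. The control MPP4 (4 libraries) and control ST-HSC (3 libraries) of the same study served only to set the mutant values beside those of controls. The altered Dnmt3a allele, the recombinase, the genotype of the controls, the ages, the sort gates and any pooling of animals are not stated in the labels. Whether the replicates are separate animals is not stated either, so that the p-values describe the variation among these libraries, part of which may be technical.

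MPP4 cells lie downstream of ST-HSC and are known for high FLT3 receptor and for a bias towards lymphoid fates, while ST-HSC keep access to the megakaryocyte and erythroid branches. Dnmt3a is the gene of an enzyme that sets new DNA methylation, and loss of its function is known to expand the stem-cell pool. RNA is given as CPM, the usual depth-scaled counts, with TMM factors, and values of the 4 libraries of a group are listed in the order of replicates 1 to 4. Differences are log2 ratios of mutant MPP4 over mutant ST-HSC ± SE (n = 4 per group) from edgeR's quasi-likelihood test, and "called" means a Benjamini-Hochberg adjusted p under 0.05 over all genes tested. The 8 libraries held 6323478 to 8740114 counts. At this depth an undetected gene may still have had as much as 0.326 to 0.557 CPM in a library (3 counts, counting error only).

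Of 12908 genes tested, 128 were called higher in mutant MPP4 (0.992%) and 130 lower (1.01%), 2.00% in all. The genes called lower differed more: 94 of them and 42 of those called higher differed over 4-fold, and the medians were -2.92 and 1.62 on the log2 scale, against -0.02 over all genes tested. For all 258 called genes the 4 MPP4 libraries did not overlap the 4 ST-HSC libraries, which held for 1110 genes tested (8.60%). By gene list, the members called higher were mainly of lymphoid priming, of granulocyte and monocyte priming, and of G2 and mitosis. Those called lower were mainly of the erythroid, megakaryocyte and long-term HSC lists. In bulk samples, fewer cells of a type and less RNA per cell cannot be told apart, which holds for every value here. The counts depended on single libraries. Calls for higher genes numbered 73, 69, 69 and 71 without MPP4 replicates 1 to 4, and 81 and 76 without ST-HSC replicates 3 and 4. Calls for lower genes numbered 75, 86, 71 and 81 without MPP4 replicates 1 to 4, and 81 without ST-HSC replicate 4. All 258 genes kept their direction in each of the 8 fits that left out 1 library. The column names carry 1 of 2 prefixes, whose meaning no label states, and each prefix holds 2 libraries of either group. Within the first (replicates 1 and 2) all 254 called genes that could be tested kept their direction, and 3 genes were called higher and 1 lower. Within the second (replicates 3 and 4) all 258 did, and 20 genes were called higher and 36 lower. The groups overlapped for none of the 258, so a kept direction was all but fixed in advance. This holds for the prefixes and for the fits that left out 1 library, and it adds nothing to the calls.

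**Figure D1:**
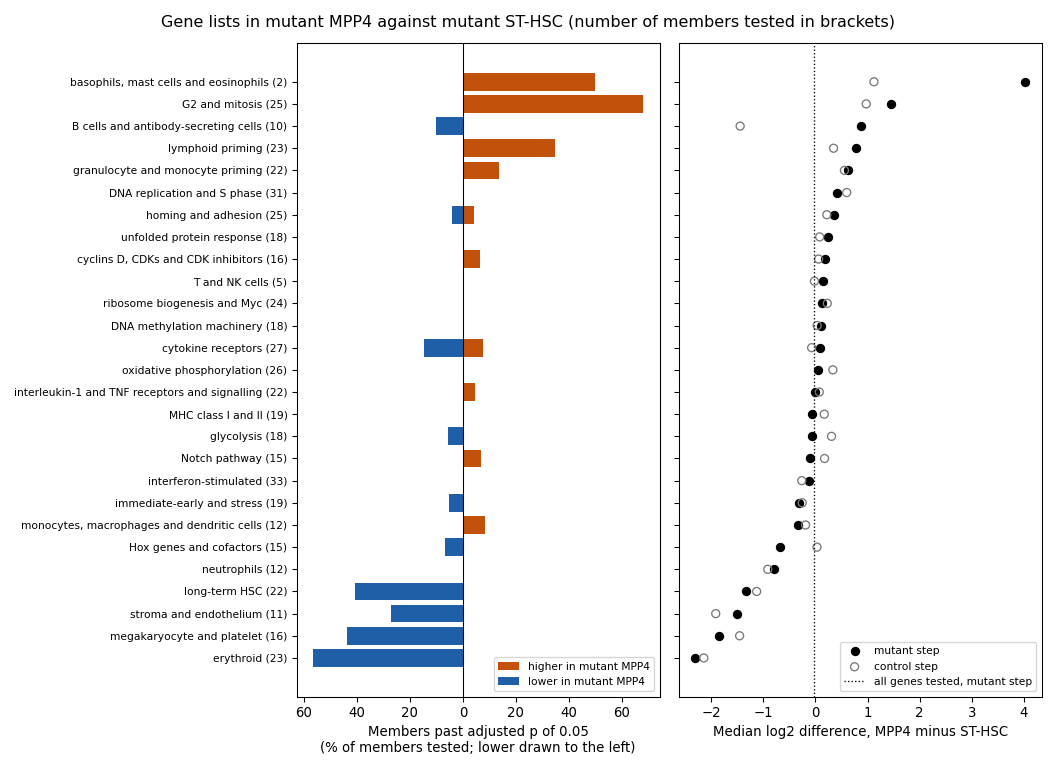
The left panel shows, for each gene list, the share of tested members (%) past an adjusted p of 0.05, with members higher in mutant MPP4 to the right and lower to the left, and the right panel shows the list's median log2 difference in mutants (filled) and controls (open). The erythroid list had 13 of 23 members lower and the G2 and mitosis list 17 of 25 higher.

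One library stood apart before any comparison. Mutant ST-HSC replicate 2 scored 129 on the first principal component of the 8 libraries (34.5% of the variance), whereas the other libraries scored -41.4 to 11.7. It had the fewest genes with a count, 14802 against 15775 to 17087. Slamf1, which encodes CD150, a surface marker of long-term HSC that ST-HSC and MPP4 lack, was at 1.83, 401, 0.776 and 1.08 CPM in the mutant ST-HSC libraries and at 0, 0, 0.121 and 0 in MPP4. The value in replicate 2 thus exceeded even the mutant LT-HSC libraries (31.1 to 54.1 CPM), while the other ST-HSC libraries were near the controls (0.764 to 2.14). Other genes high in LT-HSC were not raised in the same way. Cavin2 had 0 counts in replicate 2 (28.2 to 45.4 CPM in mutant LT-HSC). Vwf was at 53.8 CPM in it, 35.9 to 55 in the other mutant ST-HSC libraries and 111 to 161 in mutant LT-HSC. The summed long-term HSC list was highest in replicate 2 (4530 CPM against 2601 to 3409). The cause was not tested. Without this library 165 genes were called higher and 162 lower, and 236 of the 258 calls were kept. Counts without it are given for each main list.

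**Figure D2:**
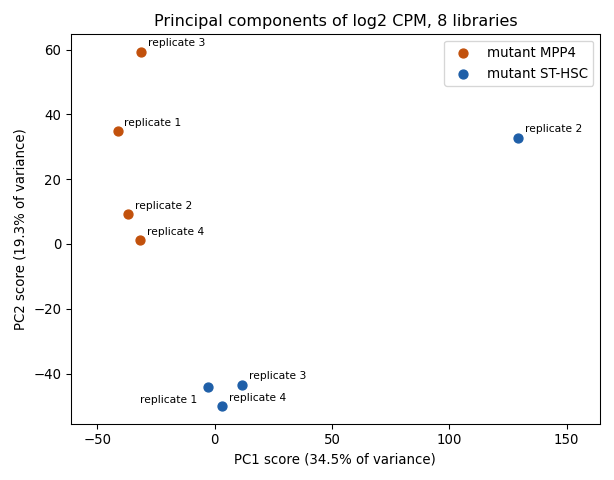
Each point is 1 library placed by its scores on the first and second principal components of log2 CPM over the genes tested, with the share of variance on each axis. Mutant ST-HSC replicate 2 lies at 129 on the first axis, apart from the other 7 libraries.

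The markers of the sort labels were mostly as the labels have them. Flt3 (ENSMUSG00000042817, chromosome 5, 147330741 to 147400489, GRCm38), the receptor by which MPP4 are defined, was at 439, 424, 460.4 and 409 CPM in MPP4 and at 109, 147, 128 and 140.2 in ST-HSC. The lowest MPP4 library was thus far above the highest ST-HSC library (1.72 ± 0.178, adjusted p = 0.000254). Cd48, a marker of committed progenitors, was at 55.8, 59.1, 40.1 and 40.7 CPM in MPP4 and at 1.13, 12.8, 6.06 and 15.8 in ST-HSC (2.45 ± 0.557, 0.0398). The Cd48 call was lost without any 1 of the 4 MPP4 libraries or ST-HSC replicate 3 (adjusted p 0.0773 to 0.125). Kit, the stem-cell factor receptor that both populations carry, was at 404, 389, 364 and 439.8 CPM in MPP4 and at 597, 708, 581 and 773 in ST-HSC (-0.74 ± 0.175, 0.0473). That call was lost in each fit that left out 1 library (0.0554 to 0.154). Ly6a, which encodes Sca-1, was at 13.2, 19.2, 47 and 32.6 CPM in MPP4 and at 44, 56.2, 76.2 and 59.9 in ST-HSC, with overlapping groups and no call (-1.09 ± 0.36, 0.184). Cd34 did not pass the test either (0.69 ± 0.207, 0.132). Dnmt3a (ENSMUSG00000020661, chromosome 12, 3806007 to 3914443) was at 150.3, 166, 115 and 146 CPM in MPP4 and at 138, 96.9, 149 and 117 in ST-HSC, and the groups overlapped (0.20 ± 0.207, 0.783). Counts over the whole gene cannot show which allele was transcribed, so this level does not check the genotype. None of the 18 tested genes of the DNA methylation machinery was called, which is near the 2.00% called over all genes tested. Dnmt1, the maintenance methyltransferase, came closest (0.85 ± 0.217, 0.0684). It passed with all 29 libraries in the fit (adjusted p = 0.025), without a filter on low counts (0.0484) and in DESeq2 (0.0119).

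Some lymphoid priming genes, among them Dntt, Rag2, Satb1 and Notch1, were higher in mutant MPP4. Of 27 genes in the list 23 were tested, and 8 were called higher and 0 lower (percent called higher over all genes 0.992%), with a median log2 difference of 0.77. Without ST-HSC replicate 2 the number was 9. The summed level of the list was 3188 to 3641 CPM in MPP4 and 1466 to 1894 in ST-HSC. Dntt (ENSMUSG00000025014, chromosome 19, 41029275 to 41059525) encodes terminal deoxynucleotidyl transferase, which adds nucleotides at the joints of antigen receptor genes, and had the smallest p of all genes. It was at 271, 349, 341 and 242 CPM in MPP4 and at 1.13, 5.2, 1.09 and 0.361 in ST-HSC (7.36 ± 0.554, adjusted p = 3.24e-05). Every MPP4 library was thus at 242 CPM or more and every ST-HSC library at or below 5.2 CPM. Rag2 (ENSMUSG00000032864, chromosome 2, 101624718 to 101632529), a subunit of the recombinase that cuts those genes, was at 25.3, 16.3, 19.9 and 11.4 CPM in MPP4 and at 0.282, 0.186, 0 and 0 in ST-HSC. The ST-HSC values come from 3 counts in all, and the ratio of the summed levels was 162 (95% interval of the counting error 55 to 785). Its partner Rag1 was low in both groups and not called (5.19 ± 4.36 against 2.18 ± 4.24 CPM, 1.25 ± 1.33, 0.786).

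Regulators of lymphoid fate were also higher. Satb1, a chromatin organiser of the lymphoid branch, was at 261, 449, 311 and 345 CPM in MPP4 and at 24.7, 20.4, 28.4 and 62.8 in ST-HSC (3.31 ± 0.342, 0.000254). Notch1, the receptor that drives the T lineage, was at 178, 212, 139.6 and 186 CPM in MPP4 and at 47.6, 81.5, 48.1 and 52.4 in ST-HSC (1.64 ± 0.233, 0.00261). Neither gene's groups overlapped. Mef2c, Ikzf1 and Blnk were called as well and were picked from the list after their values were seen. Mef2c, a transcription factor that favours lymphoid over myeloid fate, was at 305 ± 26.9 CPM in MPP4 and 92.1 ± 29.2 in ST-HSC (SD, n = 4 each; 1.72 ± 0.248, 0.00272). Ikzf1, which encodes Ikaros, was at 626 ± 21.1 and 365 ± 53.8 CPM (0.77 ± 0.176, 0.0395). Blnk, an adaptor of the B cell receptor, was lower than these in both groups, at 17.7 ± 8.05 and 3.08 ± 1.88 CPM (2.53 ± 0.565, 0.036). The remaining 15 tested members were not called. Among them Il7r, the receptor of the lymphoid cytokine IL-7, was at 15.9 ± 5.58 CPM in MPP4 and 8.08 ± 15 in ST-HSC, where 1 library held 30.6 CPM (1.00 ± 1.2, 0.815). Ebf1, a determinant of the B lineage, was at 213 ± 181 and 218 ± 176 CPM (-0.04 ± 0.665, 0.988). In the Notch pathway list Notch1 was the 1 member called among 15 tested (0.992% called higher over all genes), and the median was -0.10. Dtx4 had the next smallest p in that list among genes not called, at 18.5, 10.3, 18.3 and 7.28 CPM in MPP4 and 0.282, 7.24, 0.155 and 1.32 in ST-HSC, where replicate 2 was the high value (2.62 ± 0.903, 0.206). It passed without that library (adjusted p = 0.00514).

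**Figure D3:**
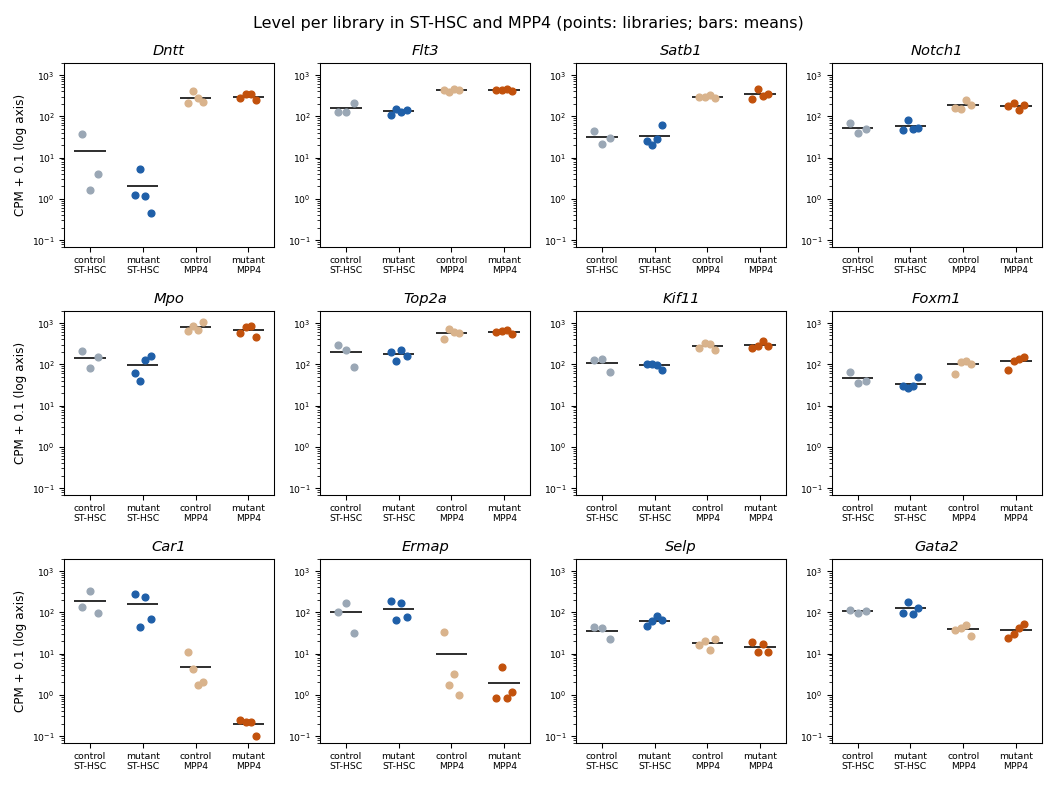
Each panel plots the level of 1 gene (CPM plus 0.1, on a log axis shared by all panels) in every library of control and mutant ST-HSC and MPP4, with a bar at the group mean. Dntt, Flt3, Satb1, Notch1, Mpo, Top2a, Kif11 and Foxm1 are higher and Car1, Ermap, Selp and Gata2 lower in MPP4, with no overlap between the mutant groups.

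A few genes of the granulocyte and monocyte branch were higher in mutant MPP4 as well. In that list 3 of 22 tested members were called higher (0.992% over all genes) and 0 lower, with a median of 0.62, and 4 without ST-HSC replicate 2. Mpo, the peroxidase of primary granules, was at 565, 783, 822 and 458 CPM in MPP4 and at 62.7, 39.7, 130.0 and 158 in ST-HSC (2.74 ± 0.381, 0.00207). Clec12a, an inhibitory lectin receptor of myeloid cells, was at 98.7, 56.3, 105 and 57.8 and 5.36, 21.5, 9.01 and 7.58 CPM (2.88 ± 0.423, 0.0029). In both genes the MPP4 libraries lay above every ST-HSC library. Ctsg, a granule protease, was at 51, 15.2, 40.3 and 11.4 CPM in MPP4 and at 2.82, 0.186, 2.33 and 3.13 in ST-HSC (3.76 ± 0.685, 0.0113). Its call was lost without MPP4 replicate 1 (0.0563) or 3 (0.0503) and in limma voom (0.0905). Irf8, a transcription factor of monocytes and dendritic cells, did not pass: it was at 60, 35.8, 58.8 and 43.5 CPM in MPP4 and at 2.54, 28.2, 1.86 and 3.85 in ST-HSC, where replicate 2 stood out (2.46 ± 0.701, 0.112). Irf8 passed without that library (adjusted p = 6.32e-05). Cd33, a sialic-acid-binding receptor of myeloid cells outside the list, was at 33.1, 36.2, 45.8 and 34.9 CPM in MPP4 and at 2.68, 7.61, 4.04 and 3.61 in ST-HSC (3.06 ± 0.396, 0.00117). Of the late neutrophil genes 0 of 12 tested were called, and their median was -0.80. Mcpt8, a protease of basophils, was at 8.02, 1.89, 4.25 and 8.26 CPM in MPP4 and had 0 counts in all 4 ST-HSC libraries, at least 12.4-fold higher against a floor of 3 counts per library. Only 1 other gene of the 14 in the basophil, mast cell and eosinophil list was tested, Srgn (-0.35 ± 0.221, 0.584). Of the 14, 5 had counts in MPP4 and none in ST-HSC (Mcpt8 with 182 counts in all, Prss34 46, Fcer1a 14, Ms4a2 3 and Epx 3), 0 had counts in ST-HSC alone, and Cma1 and Gzmb were at 0 in both. Of the 7 with counts in both, Cpa3, Il4, Prg2 and Srgn had fewer in MPP4 (15 against 75, 10 against 28, 27 against 42 and 11431 against 11903). Hdc, Ccr3 and Alox15 had more (46 against 14, 51 against 3 and 14 against 6). These are raw counts, and the MPP4 libraries were deeper (median 8.65e+06 against 6.56e+06 counts). The share of all genes with counts in MPP4 alone was not worked out. The summed level of that list was 324 to 441 CPM in MPP4 and 332 to 646 in ST-HSC, most of it Srgn. The part of basophils in the Mcpt8 value was not tested.

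Most mitotic genes were higher in mutant MPP4. All 25 members of the G2 and mitosis list were tested, all 25 had a positive difference (48.1% of all genes tested), and 17 were called higher (0.992% over all genes), with a median of 1.45. The groups did not overlap for 24 of the 25 (8.60% of all genes tested). The list's summed level was 3618 to 4286 CPM in MPP4 and 1387 to 1699 in ST-HSC. Top2a (ENSMUSG00000020914, chromosome 11, 98992943 to 99024189), the topoisomerase that untangles sister chromatids, was at 609, 648, 666 and 541 CPM in MPP4 and at 193, 119.7, 221 and 159 in ST-HSC (1.83 ± 0.212, 0.000655). Kif11, the kinesin that separates spindle poles, was at 249.6, 284, 363 and 269 and 103, 103, 95.5 and 73.2 CPM (1.63 ± 0.199, 0.000816). Every MPP4 library of both genes was well above the highest ST-HSC library. Foxm1, a transcription factor of late cell-cycle genes, was at 73.7, 121, 132 and 146 CPM in MPP4 and at 30, 26, 29.3 and 48.2 in ST-HSC (1.81 ± 0.275, 0.00362). Tpx2, a spindle assembly factor, differed by 1.47 ± 0.228 (0.00417). Mki67, the proliferation antigen, was picked after its value was seen and was at 1212 ± 138 CPM in MPP4 and 588 ± 61 in ST-HSC (1.04 ± 0.174, 0.00646). Pttg1, a mitotic gene outside the list that was also picked after its value was seen, went the other way. It was called lower, at 7.96 ± 0.691 CPM in MPP4 and 30.4 ± 18.5 in ST-HSC (-1.93 ± 0.43, 0.0359). The number of calls in this list moved with single libraries: it was 7, 9 and 8 without MPP4 replicates 2, 3 and 4, 11 and 9 without ST-HSC replicates 3 and 4, and 19 without ST-HSC replicate 2.

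S-phase genes differed less. None of the 31 members of the DNA replication list was called, near the share over all genes (0.992% called higher and 1.01% lower). A positive difference was found for 29 of them (48.1% of all genes tested), and the median was 0.42. Their summed level was 2148 to 3008 CPM in MPP4 and 1809 to 2005 in ST-HSC, so the groups did not overlap in the sum. Rrm2, a subunit of ribonucleotide reductase, was at 63.9, 57.9, 81.9 and 42.5 CPM in MPP4 and at 29.6, 44.2, 37 and 38.4 in ST-HSC, with overlap (0.72 ± 0.26, 0.235). Pcna, the sliding clamp of DNA polymerase, differed by 0.62 ± 0.228 (0.241). Of 16 cyclins, CDKs and CDK inhibitors, Cdkn1a alone was called (0.992% called higher over all genes). It encodes p21, an inhibitor of cyclin-dependent kinases, and was at 16.5, 57.7, 18.9 and 28.9 CPM in MPP4 and at 6.34, 2.78, 6.68 and 9.14 in ST-HSC (2.27 ± 0.493, 0.0313). That call was lost without MPP4 replicate 2 (0.141), the highest library, without MPP4 replicate 4 (0.0745) and without ST-HSC replicate 1, 3 or 4 (0.0752, 0.0777 and 0.0509). Limma voom did not make it either (0.0714). Cdk6 and Ccnd1, which act in G1, did not pass (0.84 ± 0.23, 0.098, and 0.91 ± 0.243, 0.0854).

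The promoters of the mitotic genes were read because these members moved together. The CHR element (TTTGAA) and the CCAAT box (CCAAT) are known as the pair of sites through which late cell-cycle genes are controlled. RefSeq promoter windows of 300 bases around the annotated start (build GRCm38.p6) were found for 20 of the 25 genes, 21 windows in all. On either strand, TTTGAA was in 76.2% of these windows and CCAAT in 85.7%, against 12.5% and 37.9% of the 12129 windows of genes tested. Both motifs were in 71.4% of them, against 5.13%. The list was made of G2 and mitosis genes, the class these sites are known for, so high shares were likely in advance. It was also chosen with earlier results of these data known, so its shares are descriptions. The 14 windows of its called members held TTTGAA in 78.6% and CCAAT in 85.7%, near the shares of the whole list. The windows of all genes called higher held TTTGAA in 35% and CCAAT in 45.5% of 143 windows, and those of genes called lower held them in 13.8% and 31.2% of 138. The 143 windows include those of the called members of the G2 and mitosis list. The 2 motifs do not overlap each other in letters, and a match is a description of the window and not a site shown to be used. Top2a, Kif11 and Mki67 are shown as called members, 5′ to 3′ on the gene's strand, with every match to either motif or to its reverse complement in capitals. The windows are chr11:99024140-99024439 (minus strand) for Top2a, chr19:37376132-37376431 (plus strand) for Kif11 and chr7:135716330-135716629 (minus strand) for Mki67.
Top2a: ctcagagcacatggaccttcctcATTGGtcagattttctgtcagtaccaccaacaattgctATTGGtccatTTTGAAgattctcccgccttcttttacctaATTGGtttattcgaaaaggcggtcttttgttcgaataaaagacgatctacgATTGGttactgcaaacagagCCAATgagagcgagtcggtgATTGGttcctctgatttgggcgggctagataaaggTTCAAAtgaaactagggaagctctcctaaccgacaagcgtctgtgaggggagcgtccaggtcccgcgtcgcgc
Kif11: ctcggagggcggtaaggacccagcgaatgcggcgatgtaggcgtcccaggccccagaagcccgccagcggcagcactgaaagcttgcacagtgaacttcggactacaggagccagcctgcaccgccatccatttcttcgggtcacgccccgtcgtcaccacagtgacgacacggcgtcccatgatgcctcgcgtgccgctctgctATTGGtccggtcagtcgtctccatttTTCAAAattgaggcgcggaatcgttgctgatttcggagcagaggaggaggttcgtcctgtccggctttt
Mki67: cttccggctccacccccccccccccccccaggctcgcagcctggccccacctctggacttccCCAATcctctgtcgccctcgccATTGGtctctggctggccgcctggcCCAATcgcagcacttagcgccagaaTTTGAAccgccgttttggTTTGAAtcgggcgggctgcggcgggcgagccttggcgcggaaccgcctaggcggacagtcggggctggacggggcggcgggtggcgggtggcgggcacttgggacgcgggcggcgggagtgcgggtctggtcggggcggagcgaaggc
The Top2a window holds 8 matches, that of Kif11 2 and that of Mki67 5. For the erythroid list, the GATA motif searched in the same way (AGATAA, either strand) was in 4 of 24 windows (16.7%) and in 2 of the 15 windows of called members (13.3%). It was in 6.74% of the windows of genes tested, 10.5% of those of genes called higher and 13.8% of those of genes called lower.

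Erythroid genes were lower in mutant MPP4. All 23 tested members had a negative difference (51.9% of all genes tested), 13 were called lower (percent called lower over all genes 1.01%) and 0 higher, and the median was -2.30. Without ST-HSC replicate 2 the number was 14. The summed level was 421 to 1082 CPM in MPP4 and 2010 to 4143 in ST-HSC. Car1 (ENSMUSG00000027556, chromosome 3, 14766216 to 14808368), a carbonic anhydrase of early erythroid progenitors, was at 0.143, 0.126, 0.121 and 0 CPM in MPP4 and at 272, 43.6, 232 and 70.3 in ST-HSC. The MPP4 libraries held 3 counts in all and the ST-HSC libraries 4242, a ratio of 1681 (95% interval of the counting error 575 to 8154). Klf1 (ENSMUSG00000054191, chromosome 8, 84901928 to 84905291), the erythroid Krüppel-like factor, had 0 counts in all 4 MPP4 libraries and 12.3, 9.09, 16.1 and 5.77 CPM in ST-HSC, at least 28.9-fold lower in MPP4. Ermap, an erythroblast membrane protein, was at 0.716, 4.65, 0.728 and 1.09 CPM in MPP4 and at 185, 66.1, 165 and 74.5 in ST-HSC (-6.09 ± 0.612, 0.000254). MPP4 replicate 2 was the high value there, yet under every ST-HSC library. Aqp1, a water channel of red cells, was at 0.286, 0.628, 0.85 and 0.109 and 44.8, 31.5, 51.2 and 13.3 CPM (-6.20 ± 0.641, 0.000254). Rhag, the Rhesus-associated glycoprotein, differed by -5.56 ± 0.663 (0.000715) and Epor, the erythropoietin receptor, by -5.91 ± 1.09 (0.0123). Gata1, the main erythroid transcription factor, was at 0.251 ± 0.501 CPM in MPP4 and 11.3 ± 7.16 in ST-HSC (-5.50 ± 1.15, 0.0249), and was picked after its value was seen. The globin genes were not called. Hbb-bs, adult beta globin, was at 209 ± 111 CPM in MPP4 and 669.5 ± 505 in ST-HSC (-1.69 ± 0.529, 0.153), with overlapping groups. Globin genes are near-identical copies among which reads are shared, so single values are uncertain.

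Selp, Zfpm1 and other genes of the megakaryocyte and platelet list were lower too. Of 24 genes 16 were tested, 7 were called lower (1.01% over all genes) and 0 higher, and the median was -1.86. The number was 8 without ST-HSC replicate 2. Selp, the adhesion receptor P-selectin, was at 19.2, 10.9, 17.4 and 11 CPM in MPP4 and at 45.4, 60.9, 79.4 and 65.7 in ST-HSC (-2.11 ± 0.305, 0.00272). Every MPP4 library was thus under the lowest ST-HSC library. Zfpm1, which encodes the GATA1 cofactor FOG-1, was at 11, 13.2, 12.5 and 17.5 CPM in MPP4 and at 37.8, 65.3, 54.7 and 50.1 in ST-HSC (-1.94 ± 0.293, 0.00345). Slc18a2, a vesicular monoamine transporter, differed by -1.96 ± 0.306 (0.00417). Vwf, von Willebrand factor, stood at 44.4 ± 15 CPM in MPP4 and 46.1 ± 9.67 in ST-HSC (-0.06 ± 0.303, 0.966). Genes of platelet products ranged widely in level. Mmrn1, the platelet protein multimerin, was at 5.58, 20.4, 6.43 and 13.6 CPM in MPP4 and at 47.8, 76.5, 61.6 and 58.7 in ST-HSC (-2.42 ± 0.399, 0.00602). Gp5, a platelet glycoprotein outside the list, was at 0, 0, 0.243 and 0 CPM in MPP4 and at 6.76, 35.3, 1.71 and 3.97 in ST-HSC (adjusted p = 0.00941), a call that limma voom did not make (0.0592). Itga2b, an integrin subunit of the lineage, was at 3.66 ± 2.44 CPM in MPP4 and 17.7 ± 3.63 in ST-HSC (-2.27 ± 0.526, 0.0438), and its call was lost in 6 of the 8 fits without 1 library, all but those without MPP4 replicate 4 or ST-HSC replicate 2 (highest adjusted p 0.14). These 3 genes were picked after their values were seen. Pf4, Ppbp and Cavin2 were under the filter, and Tubb1 and Gp6 had 0 counts in all 8 libraries.

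Several stem-cell genes, Gata2 and Tek among them, had lower levels in mutant MPP4. All 22 tested members of 27 had a negative difference (51.9% of all genes tested), 9 were called lower (1.01% over all genes), and the median was -1.32. The number called fell to 5, 4, 3 and 4 without MPP4 replicates 1 to 4 and to 4 and 3 without ST-HSC replicates 1 and 4, and was 8 without ST-HSC replicate 2. Gata2, a transcription factor required by stem cells, was at 23.1, 29.7, 42.5 and 52.2 CPM in MPP4 and at 97.8, 182, 91.2 and 129 in ST-HSC (-1.77 ± 0.3, 0.00685). Tek, the angiopoietin receptor of quiescent stem cells and of endothelium, was at 2.43, 1.76, 3.4 and 4.78 and 15.2, 31.4, 14.8 and 36.8 CPM (-2.98 ± 0.494, 0.00602). Neither gene's groups overlapped. Meis1, a Hox cofactor, was at 159, 190.0, 169 and 242 CPM in MPP4 and at 352, 556, 286 and 335 in ST-HSC (-1.01 ± 0.231, 0.0413). Its call was lost in 7 of the 8 fits without 1 library (0.0533 to 0.15), all but the fit without ST-HSC replicate 3. Mecom, a regulator of stem-cell maintenance picked after its value was seen, was at 42.4 ± 13.1 CPM in MPP4 and 102 ± 24.7 in ST-HSC (-1.27 ± 0.285, 0.0369). Procr, the endothelial protein C receptor, missed the threshold at 12.6 ± 3.12 against 38.6 ± 18.1 CPM (-1.61 ± 0.389, adjusted p = 0.0512), and Hlf, a transcription factor of stem cells, was at 615 ± 69.3 against 954 ± 139.8 CPM (-0.64 ± 0.181, 0.112). Hox genes themselves gave no call.

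Cdh5, Kdr and Sparc, genes of endothelial cells, were called lower in mutant MPP4 by edgeR. Of 16 genes in the stroma and endothelium list 11 were tested and 3 were called lower (1.01% over all genes), with a median of -1.50. Cdh5, the endothelial cadherin, was at 0, 0.377, 0 and 0.435 CPM in MPP4 and at 4.37, 21.7, 5.44 and 52.1 in ST-HSC (-6.53 ± 1.06, 0.0055). Sparc, a matrix protein, was at 3.15, 3.77, 3.16 and 6.84 and 20, 29.7, 8.54 and 71.1 CPM (-2.93 ± 0.589, 0.0193). Kdr, the receptor of vascular endothelial growth factor, was at 0, 0.251, 0 and 0 and 1.41, 1.86, 5.75 and 17.4 CPM, a ratio of 120.1 (95% interval of the counting error 32.8 to 998) lower in MPP4 from 2 counts there. ST-HSC replicate 4 was the highest library for all 3 genes. Limma voom called none of the 3 (adjusted p 0.0991 for Cdh5, 0.0578 for Kdr and 0.0967 for Sparc). The number called was 4 without ST-HSC replicate 2. Without ST-HSC replicate 4, 1 of the 3 was called: Kdr and Sparc had adjusted p of 0.0817 and 0.0848, and without MPP4 replicate 1 they had 0.0814 and 0.0855. Kdr was also lost without MPP4 replicates 3 (0.0787) and 4 (0.0739), and Sparc without replicates 2 (0.0713) and 3 (0.087). The whole list's summed level was 172 to 426 CPM in MPP4 and 206 to 516 in ST-HSC, since Pecam1, which blood progenitors also express, made up most of it in both. Col3a1 had 0 counts in all 8 libraries and Col1a1 had 0 in MPP4. Tek, Esam, Tgfbr3 and Ptprb, which stem cells and endothelium share, moved in the same direction. The part of endothelial RNA in their differences was not tested.

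Markers of other blood cells gave few calls (over all genes tested 0.992% were called higher and 1.01% lower). Igkc, the immunoglobulin kappa constant region, was at 1.43, 0.754, 0.121 and 0.869 CPM in MPP4 and at 16.1, 85.2, 105 and 3.01 in ST-HSC (-6.04 ± 0.995, 0.00602). It was the 1 call among 10 tested genes of the B-cell list, whose median was 0.88 in the opposite direction, and limma voom did not call it (adjusted p = 0.364). The list's summed level was 273 to 381 CPM in MPP4 and 34.5 to 699 in ST-HSC. Ms4a1, which encodes CD20, and Tnfrsf17 were at or under 0.155 CPM in the mean of both groups. Of the T and NK cell list 5 of 18 genes were tested and 0 called, with summed levels of 42.1 to 63.1 CPM in MPP4 and 22.5 to 46.6 in ST-HSC, and Cd3e, Cd3g and Trac at 0. The neutrophil list summed to 55.2 to 375 CPM in MPP4 and 100.2 to 740.1 in ST-HSC. Flt3 was the 1 gene called in the monocyte, macrophage and dendritic cell list (12 tested, median -0.32). What these cells add to the other differences was not tested.

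Cytokine receptors changed in both directions. Of 27 tested, 2 were called higher (Flt3 and Il6ra) and 4 lower (among them Tgfbr3, Epor and Kit), with a median of 0.08. Over all genes tested 0.992% were called higher and 1.01% lower, the background for each list here. Il6ra, the interleukin-6 receptor, was at 56.1 ± 15 CPM in MPP4 and 13.2 ± 7.27 in ST-HSC (2.07 ± 0.412, 0.0184) and was picked after its value was seen. Without MPP4 replicate 1, 2 or 3, or ST-HSC replicate 1 or 4, 1 receptor was called higher. Tgfbr3, the TGF-beta co-receptor betaglycan, was at 2.58, 2.01, 10.7 and 6.84 CPM in MPP4 and at 35.7, 71.8, 30.9 and 60.4 in ST-HSC (-3.17 ± 0.518, 0.00566). Il1r1, the interleukin-1 receptor, was the 1 called gene among 22 tested in the interleukin-1 and TNF list, at 76.7, 107, 92.7 and 130.5 CPM in MPP4 and at 41, 31.2, 15.4 and 44.4 in ST-HSC (1.62 ± 0.313, 0.016). It did not pass without MPP4 replicate 4 (0.0637). In the homing and adhesion list Adgrg3, an adhesion G-protein-coupled receptor, was called higher (1.49 ± 0.216, 0.00272) and Esam, an endothelial cell adhesion molecule, lower (-2.37 ± 0.526, 0.0359), among 25 tested. Esam was lost without MPP4 replicate 1, 2 or 3 or ST-HSC replicate 1, 3 or 4 (0.0687 to 0.0956).

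Lists of housekeeping, immune and stress genes gave few calls (over all genes tested 0.992% were called higher and 1.01% lower). None of 24 tested ribosome biogenesis genes, 26 oxidative phosphorylation genes, 18 unfolded protein response genes, 33 interferon-stimulated genes or 19 MHC genes was called, with medians of 0.13, 0.04, 0.25, -0.12 and -0.07. A miss does not show that they did not differ: on simulated counts for this comparison, the test recovered 70% of 4-fold and 15% of 2-fold changes. These changes were simulated only in genes with counts well over the filter. Recovery in genes of lower counts was not tested. Slc2a3, a glucose transporter, was the 1 call among 18 glycolysis genes (-0.96 ± 0.222, 0.0448), and its call was lost in the 7 fits that left out 1 library other than ST-HSC replicate 4 (0.0631 to 0.121). Fosb, an immediate-early transcription factor, was the 1 call among 19 immediate-early and stress genes, at 295, 221, 213 and 265 CPM in MPP4 and at 675, 684, 591 and 338 in ST-HSC (-1.21 ± 0.235, 0.0167). It did not pass without MPP4 replicates 2, 3 or 4, or ST-HSC replicates 1 or 3 (0.0501 to 0.0706).

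Several of the strongest differences lay outside the lists. Kcng1, a potassium channel subunit, was at 15.6, 26.3, 8.13 and 16.1 CPM in MPP4 and had 0 counts in all 4 ST-HSC libraries, at least 36.6-fold higher. Arpp21, a cyclic-AMP-regulated phosphoprotein, was at 37.7, 64.6, 26.1 and 27.9 CPM in MPP4 and at 1.13, 0, 0.155 and 0 in ST-HSC (6.81 ± 0.809, 0.000715). BC035044 and the chemokine gene Ccl3 were higher by 3.48 ± 0.356 (0.000254) and 2.75 ± 0.304 (0.000465). In the other direction, Atp1b2, a subunit of the sodium pump, was at 0.286, 0, 0 and 0 CPM in MPP4 and at 44.7, 32.1, 55.9 and 31.5 in ST-HSC, a ratio of 661 (95% interval of the counting error 183 to 5464) from 2 counts in MPP4. Ces2g, a carboxylesterase, was at 0, 0.251, 0.121 and 0.978 and 59.3, 84.8, 104 and 34.6 CPM (-7.55 ± 0.66, 7.31e-05). These genes separated the groups in every library. Grb10, an imprinted adaptor of growth factor receptors, was at 3.15, 8.8, 8.25 and 5.54 CPM in MPP4 and at 59.3, 70.7, 54 and 55.7 in ST-HSC (-3.22 ± 0.348, 0.000383). Nfia, a transcription factor that favours the erythroid branch, was at 19, 22.2, 26.1 and 35.3 and 128, 88.1, 122 and 105 CPM (-2.11 ± 0.253, 0.000715). Pklr (red-cell pyruvate kinase), Tmem56 and Mt2 (a metallothionein) had 0 counts in all MPP4 libraries, at least 41.8-, 69- and 39.2-fold lower.

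The same step in control mice was set beside the mutant one, from a fit of 15 libraries; the mutant and control steps share no library. In controls 73 genes were called higher (0.500% of 14601) and 81 lower (0.555%), 1.05% in all. These counts moved with single control libraries: they were 28 and 29 without control MPP4 replicate 2, 37 and 35 without replicate 3, 34 and 34 without replicate 4, 21 and 35 without control ST-HSC replicate 2 and 28 and 51 without replicate 3. Of the 258 mutant calls, 94 were also called in controls, all in the same direction; this is 36.4% of the mutant calls and 69.6% of the 135 control calls among the genes tested in both. Without 1 control library, 37 to 83 genes were called in both, 14.3% to 32.2% of the mutant calls and 62.4% to 88.7% of the control calls, and all of them had the same direction. The control difference had the sign of the mutant one for 254 of the 258 (98.4%), against 61.5% of all genes tested in both. It was smaller in size for 221 of them, but these genes were chosen by the size of the mutant step. The difference between the steps was itself tested: 0 of 14601 genes passed in edgeR (0%, smallest adjusted p = 0.96), 691 had an unadjusted p under 0.05 (4.73%), limma voom called 0, and DESeq2 called 4 higher and 1 lower. At this size the test recovered 43% of simulated 4-fold and 2% of 2-fold differences between steps, again simulated only in genes with counts well over the filter. No gene can therefore be called particular to the mutant step from the edgeR fit.

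Several members had a wider gap in mutants without passing that test. For Car1 the log2 difference was -5.35 in controls, where MPP4 kept 4.56 ± 4.2 CPM, and the mutant step minus the control step was -5.13 ± 1.25 (unadjusted p = 0.000576). Arpp21 had 2.60 in controls and a difference between steps of 4.22 ± 1.02 (0.000529). For Dntt the control ST-HSC were at 14 ± 19.6 CPM (SD, n = 3), with 1 library at 36.7, and the control step was 4.29. Satb1, Flt3, Grb10 and Top2a had nearly the same step in controls (3.23, 1.46, -3.23 and 1.53). Of the 8 genes with the smallest p of the difference, Car1, Arpp21 and Cyren were called in the mutant step and the other 5 were not. One of those, Rras, a small GTPase, was at 0.43, 3.9, 0.85 and 1.52 CPM in mutant MPP4 and at 1.27, 38, 18.3 and 17.7 in mutant ST-HSC, against 4.35 and 1.56 CPM in the control means (-4.95 ± 1.16, unadjusted p = 0.00039). Cyren, a regulator of DNA end joining, was called in the mutant step at 4.58, 5.4, 3.28 and 3.37 against 20.3, 44.7, 6.37 and 30.4 CPM (-2.61 ± 0.542, adjusted p = 0.0233) and had 0.33 in controls. Its call was lost without any 1 of the MPP4 libraries or ST-HSC replicate 4 (0.0569 to 0.0897) and in limma voom (0.105). Cdh5 and Igkc were also lower in control MPP4 (log2 differences of -8.25 and -7.59). For Igkc the control groups overlapped, with control ST-HSC at 1402, 2.26 and 62.3 CPM and control MPP4 at 0.299 to 4.37.

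**Figure D4:**
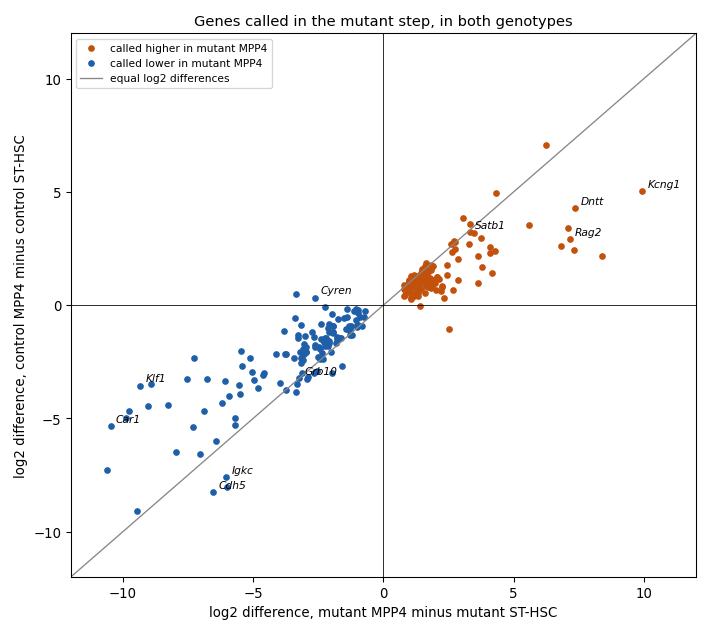
Each point is 1 of the 258 genes called in the mutant step, placed by its log2 difference in mutants (8-library fit, the axis that chose the genes) and in controls (15-library fit), with a line where both are equal. All but 4 points have the same sign on both axes.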

How the data were processed

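Poly(A) RNA of sorted bone marrow cells was sequenced, with total RNA isolated by an RNeasy Micro kit, per the labels' protocols. The deposited table holds expected counts per gene, as whole numbers, for 38924 Ensembl gene identifiers. Per the submitters' processing notes the authors used the GRCm38 build with edgeR 3.5.3, SAMtools 0.1.18, Bowtie2 2.2.0 and RSEM 1.2.12, whose order and settings no label records. Reads that match near-identical genes are divided by RSEM, which makes such genes uncertain. Symbols came from GENCODE vM21 (37607 identifiers matched, 1317 not). Mitochondrial rRNA held 21.4% to 31.2% and Gm42418, an rRNA-like gene, 4.07% to 6.5% of the counts of the 8 libraries, and unmatched identifiers 0.875% to 1.06%.

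The 4 mutant MPP4 and 4 mutant ST-HSC libraries were compared with the quasi-likelihood test of edgeR 4.0.16 under R 4.3.3, after filterByExpr (at least 10 counts, 15 in total) and TMM scaling, and with Benjamini-Hochberg adjustment (threshold 0.05). The control step and the difference between steps came from 1 fit of 15 libraries with 4 group means. Levels are CPM with TMM factors over all 29 libraries. In mutant ST-HSC the titles name Dnmt3a but not mutant, and the description's letter M was used with the title to place them. Every one of 21 replicate pairs differed beyond sampling noise (chi-square per degree of freedom 20.3 to 68.2), so each library counted once. Folds against a group with 0 counts use 3 counts per library as the floor, and ratios resting on 1 to 3 counts carry an exact 95% binomial interval. Alternatives were relative log expression factors, other filters, DESeq2 1.42.0, limma 3.58.1 (voom), all 29 libraries, no rRNA genes, a replicate block and leaving out each library. Column-name prefixes were added as an alternative after the data were seen. The tests were run on simulated counts first.

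The members and the 27 gene lists were chosen with earlier results of these data known, so list counts are descriptions. Named genes were the 15 higher and 15 lower called genes of smallest p without overlap, the 4 smallest p per list, the sort antigens with Dnmt3a, the 8 smallest p for the difference between steps, and the 8 higher and 8 lower called genes of largest fold with a mean over 5 CPM. Any gene named outside this rule is marked as picked after its value was seen or given only as a list member. Results for some members of the lists are not reported here.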

Additional observations from a re-analysis of the deposited data

Results flagged for a closer look

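In 11 of 94 checked sets of 4 values (1 gene in 1 group), the highest or the lowest library lay apart from the other 3 by Dixon's criterion, and chance alone marks about 5% of such sets. Mutant ST-HSC replicate 2 was the library in 4 of the 11. It was the highest for Slamf1, at 401 CPM against a median of 1.08 in the other 3 libraries, and for Dntt, at 5.2 against 1.09. It was also the highest for Notch1, at 81.5 against 48.1 CPM, and for Adgrg3, at 98.9 against 72.4 CPM. In mutant MPP4 replicate 2 was the highest for Ermap, at 4.65 against 0.728 CPM, and replicate 4 for Sparc, at 6.84 against 3.16 CPM. The other 5 rest on few counts: Kdr at 0.251 CPM in MPP4 replicate 2, Slamf1 at 0.121 in MPP4 replicate 3, Atp1b2 at 0.286 in MPP4 replicate 1, Car1 at 0 in MPP4 replicate 4, and Arpp21 at 1.13 CPM in ST-HSC replicate 1. The checked sets did not cover every gene named, so the 4 flags of ST-HSC replicate 2 are a minimum. That library was also far the highest of its group for Irf8 and Dtx4, as given above. Gp5 and Il7r were at 35.3 and 30.6 CPM in it, and at most 6.76 and 1.71 in the other mutant ST-HSC libraries.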

How the results depend on the processing

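With all 29 libraries in 1 fit, 234 genes were called higher and 245 lower in mutant MPP4, and DESeq2 called 273 and 309. Size factors, other filters, limma voom, no rRNA genes and the replicate block stayed within 1.5 times of the 128 and 130 calls. Leaving out 1 library gave 69 to 165 higher and 71 to 162 lower. Within the column-name prefixes there were 3 and 1 (first) and 20 and 36 calls (second). For the difference between steps, leaving out any 1 library gave 0 calls, no filter on low counts gave 1 higher call (Rpl23a-ps3), and DESeq2 gave 4 higher (Arpp21, Slc41a2, Gm10221 and Rpl23a-ps3) and 1 lower (Rras). Control calls ran from 21 to 82 higher and 29 to 65 lower without 1 library. Signs turned for genes that were not called. Leaving out 1 library, Hoxa6 ran from -2.06 to 0.0085 (without ST-HSC replicate 2), Chil3 from -3.12 to 0.17 (without ST-HSC replicate 4) and Cd8b1 from -0.17 (without MPP4 replicate 1) to 0.39. Within the first prefix Ndufa4 was -0.068, and within the second Dnmt3a was -0.04 and Cd8b1 -0.34. The cause was not tested.

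Of the 64 named genes called, 49 were called in all 8 fits that left out 1 library. Without a filter 20 erythroid and 14 long-term HSC genes were called lower, DESeq2 also called 14 long-term HSC genes, and limma voom called 0 of the stroma and endothelium list. The replicate numbers, and a number in the descriptions whose meaning no label states (1702, 1704, 1808 and 1819), recur in both groups. After each gene's group mean was subtracted from its log2 CPM, same-numbered libraries correlated by 0.0366, -0.0414, 0.119 and 0.158. Libraries with different numbers correlated by -0.19 to 0.125. A pairing by animal is not stated in the labels, and so few same-numbered pairs cannot decide it. A fit with the replicate block called 104 genes higher and 108 lower, 196 of them among the 258; of the named genes, Kdr, Cdkn1a, Esam, Slc2a3 and Kit were no longer called, and Rras, Cd74, Irf8 and H2-Ab1 were. Depth limits genes near 0.326 to 0.557 CPM, the level of 3 counts.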

Other observations

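Levels in the populations outside the comparison place a few of the genes. Dntt was at 37 ± 5.92 CPM in mutant MPP3 (SD, n = 4) and at 0 in the 3 mutant LT-HSC libraries, so mutant MPP4 had the highest mean of the 4 mutant populations. Mki67 was at 1486 ± 65.9 CPM in mutant MPP3 and 963 ± 203 in mutant LT-HSC (n = 3), and mutant ST-HSC had the lowest mean of the 4. Car1 was at 134 ± 52.9 CPM in mutant MPP3 and 19.5 ± 19.9 in mutant LT-HSC. Igkc reached 5166 ± 5954 CPM in mutant MPP3 and 3166 ± 2305 in control MPP3 (n = 3), far above both populations compared here. Cdh5 was at 22.1 ± 19.8 CPM in control ST-HSC and had 0 counts in mutant LT-HSC. These levels were not tested.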
